A study of Homo sapiens with 4 samples.

Results

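Aminoacyl-tRNA synthetases are the enzymes that attach each amino acid to its tRNA, and 34 of their genes were followed here through treatment of 2 cancer cell lines with GANT61. The genes were taken by name from the array's own gene column, where they are on 41 of 47229 probes and make up 34 of 30563 named genes. The rule made 20 of them cytosolic enzymes and 14 mitochondrial ones, the latter carrying names that end in 2. The rule used names alone, but the members were chosen with earlier results of these data known.

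Both lines are established and carry the same label of an adenocarcinoma from ovarian ascites, whereas H4 is usually known as a brain tumour (neuroglioma) line. Each line had 1 Illumina Human HT V4 BeadChip from cells given the solvent DMSO and 1 from cells given 20 µM GANT61, an inhibitor of the Hedgehog pathway that acts on the GLI transcription factors. All 4 titles give 48 h, and the shorter time that the protocol also names is not analysed here. With 4 groups of 1 array, ratios within a line carry neither an error between replicates nor a test. In such bulk RNA, fewer cells of a kind and less RNA per cell cannot be told apart. Of 12 ovarian epithelial markers, KRT7, KRT8 and KRT18 were detected on both ES2 arrays and KRT18 and MUC1 on both H4 arrays, while PAX8, WT1, EPCAM and CDH1 were detected on no array. Of 10 glial markers, SLC1A3 was detected on both arrays of each line and OLIG2 on both H4 arrays, while GFAP and S100B were detected on no array.

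Protein synthesis runs in the cytosol on ribosomes that read nuclear messages and in mitochondria on ribosomes that read mitochondrial ones, and each compartment needs its own set of charged tRNAs. Most amino acids have a separate nuclear gene for each compartment, whereas KARS1 and GARS1 each make both forms from 1 gene. Several cytosolic enzymes sit together in a multi-synthetase complex with scaffold proteins, and the others work free of it. When amino acids run short or the endoplasmic reticulum is stressed, phosphorylation of eIF2α favours translation of the transcription factor ATF4, and many cytosolic synthetase genes are known targets of ATF4 alongside amino acid transporters and enzymes that make serine and asparagine.

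ATF4 binds with a C/EBP protein to a composite element that was searched here as TGATGNAA on both strands, where N is any base, in the 300 bases around each start in the RefSeq promoter table of GRCh38.p14 (250 before the start and 50 after it). Promoters were in that table for 16 of the 20 cytosolic and 12 of the 14 mitochondrial genes. The element was found in 7 of the 16 (43.8%), in 1 of the 12 (8.33%) and in 4.46% of all 27305 genes of the table. Among ATF4 and its target genes outside the synthetases it was found in 8 of 25 (32%). A match is a description of the sequence and does not show that a factor binds there. In 6 of the 7 cytosolic genes the element reads TTGCATCA or its reverse complement. The search fixes every letter but N, so only that letter was free to differ. Its share over all windows with the element was not counted. The stretches are shown to place the element, and capitals mark it within 11 flanking bases on each side.
GARS1, chr7:30594834-30594863, plus strand: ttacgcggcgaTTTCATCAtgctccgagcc
CARS1, chr11:3057407-3057436, minus strand: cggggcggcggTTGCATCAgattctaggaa
NARS1, chr18:57621804-57621833, minus strand: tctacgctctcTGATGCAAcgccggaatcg
AARS1, chr16:70289675-70289704, minus strand: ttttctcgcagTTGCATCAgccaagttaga
IARS1, chr9:92293692-92293721, minus strand: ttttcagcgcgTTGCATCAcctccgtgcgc
MARS1, chr12:57488053-57488082, plus strand: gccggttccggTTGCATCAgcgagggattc
TARS1, chr5:33440956-33440985, plus strand: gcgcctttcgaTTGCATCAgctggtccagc
YARS2, chr12:32756076-32756105, minus strand: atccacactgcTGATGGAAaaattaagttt

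In these stretches the element begins 2 bases before the start in CARS1, 4 before it in MARS1, 13 before it in IARS1 and 187 before it in AARS1, and 14 bases after the start in NARS1. In YARS2, the mitochondrial tyrosine enzyme, it begins 197 bases before. GARS1 and TARS1 each have a further start downstream of the first, and their element lies by that one, 33 bases before it in GARS1 and 2 after it in TARS1. The window at the first start of GARS1 and TARS1, and a further window of CARS1, hold no such element. LARS1, VARS1, YARS1, AARS2 and VARS2 were among the genes with no window searched.

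All values are normalized log2 signals, and a ratio is GANT61 minus DMSO on that log2 scale. A probe counted as detected on an array at a detection p under 0.01. The spread between probes of 1 gene is the nearest thing to a technical error here: where a gene had 2 detected probes, the SD of a single probe's ratio was 0.143 in ES2 (2545 genes) and 0.221 in H4 (1993 genes). Of the 34 genes, 29 have 1 probe, 4 have 2 and VARS1 has 4, and the brightest was used. FARSB, the beta subunit of the cytosolic phenylalanine enzyme, was detected on no array and is left out of every count. A probe that the file calls FARSLB, an older name of FARSB, falls outside the rule, was detected on all 4 arrays and had ratios of 0.06 in ES2 and 0.08 in H4. PARS2 and WARS2, the mitochondrial proline and tryptophan enzymes, were not detected on either H4 array, and PARS2 was detected on 1 of the ES2 arrays. This leaves 19 cytosolic and 14 mitochondrial genes in ES2 and 19 and 12 in H4.

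**Figure D1:**
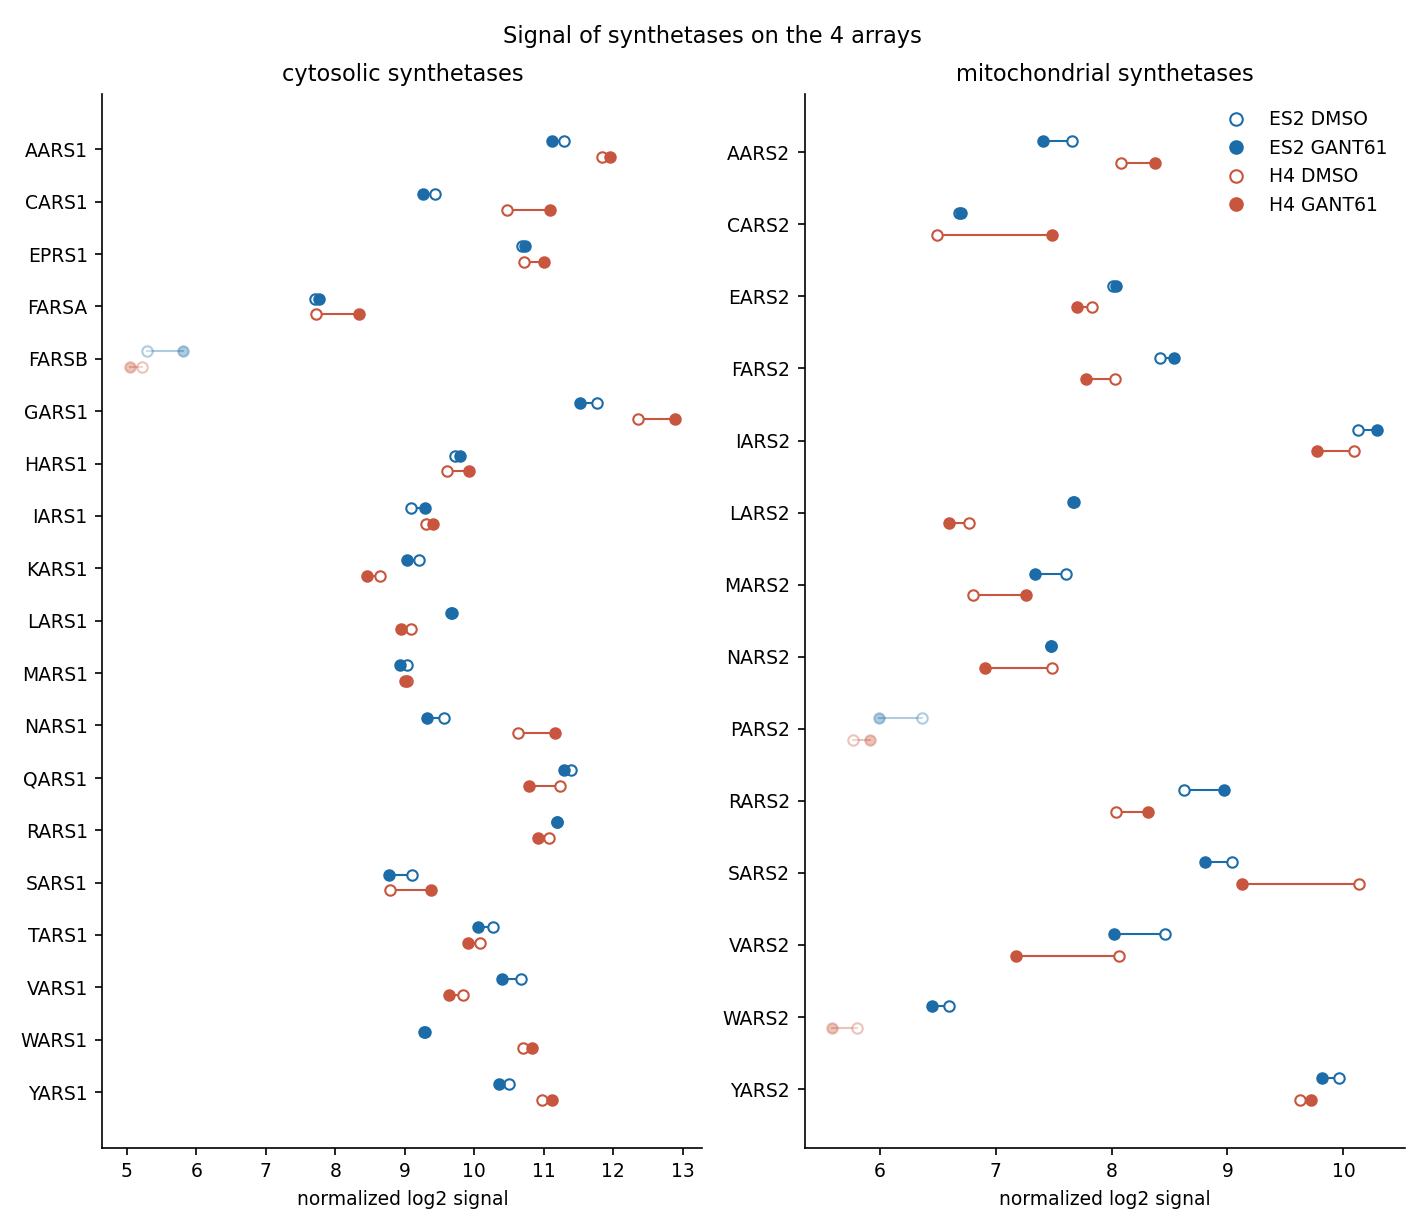
Normalized log2 signal (horizontal axes) of synthetase genes on the 4 arrays, in alphabetical order from the top, for cytosolic (left) and mitochondrial (right) enzymes. Open circles are DMSO, filled circles GANT61, and paler symbols mark genes not detected on both arrays of the line. The longest lines are those of SARS2, CARS2 and VARS2 in H4.

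In H4 the cytosolic set was spread to both sides with more genes higher than lower with GANT61, and the mitochondrial set held both the highest and the lowest ratio. Of 19 cytosolic genes 11 were higher (57.9%) and 8 lower (42.1%), against 45.4% and 54.5% of all genes measured in H4. At a threshold of 1.5-fold, 3 were higher (15.8%, against 11.3% of all genes) and 1 was lower (5.26%, against 12.6%). The cytosolic median was 0.12 and the mitochondrial median -0.15, while the median of all 11545 genes was -0.05. The 3 were the enzymes for cysteine (CARS1), phenylalanine (FARSA, the alpha subunit) and serine (SARS1). Markers of cell types differed in H4 too, and their part in the synthetase ratios was not tested. Of 3 glial markers measured there, OLIG2 was 3.13-fold higher and the others were within 1.5-fold. Of 3 ovarian epithelial markers, KRT18 was 1.71-fold higher and MUC1 1.64-fold lower. Of 6 mesenchymal markers, 4 were lower, S100A4 by 3.52-fold, and 2 of the 4 were detected on 1 array, COL3A1 with a ratio of at most -1.91 and COL1A1 of at most -0.26. CD68 was the 1 blood marker of 6 measured, with a ratio of 0.19. In ES2 no marker of these lists that was measured reached 1.5-fold.

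CARS1 read 10.47 with DMSO and 11.10 with GANT61 in H4 (1.54-fold higher), against 9.43 and 9.27 in ES2. Its second probe gave 6.58 and 6.94 in H4, a ratio of 0.36. Both CARS1 probes were thus higher with GANT61 in H4 by more than the probe SD, and both were lower in ES2, where the second was detected on 1 array. FARSA read 7.72 and 8.34 in H4 (1.54-fold higher) and 7.71 and 7.77 in ES2. SARS1 read 8.78 and 9.38 in H4 (1.52-fold higher) and 9.10 and 8.78 in ES2.

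The enzymes for glycine and asparagine followed closely. GARS1 read 12.36 and 12.89 in H4 (1.45-fold higher), and NARS1 read 10.64 and 11.16 (1.44-fold higher). In ES2 the same genes read 11.77 and 11.52, and 9.57 and 9.32, each 1.19-fold lower. HARS1, for histidine, was 1.24-fold higher in H4 and EPRS1, which joins the glutamate and proline activities in 1 protein, 1.22-fold. These 7 genes were the cytosolic ones whose H4 ratio was higher than the probe SD (36.8% of 19, against 28.8% of all genes). AARS1, YARS1, WARS1 and IARS1 had H4 ratios of 0.12, 0.15, 0.14 and 0.11, inside that SD. The second WARS1 probe gave 0.11.

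On the lower side of the cytosolic set in H4 stood QARS1, for glutamine, which read 11.23 with DMSO and 10.79 with GANT61 (1.36-fold lower). In ES2 it read 11.40 and 11.30, within the probe SD. In all, 2 cytosolic genes were lower by more than the probe SD in H4 (10.5%, against 35.2% of all genes). VARS1, KARS1, TARS1, LARS1, RARS1 and MARS1 had ratios from -0.21 to -0.02.

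The mitochondrial set had the widest H4 range, from -1.01 to 0.99. Of 12 genes 5 were higher and 7 lower, and at the 1.5-fold threshold 1 was higher (8.33%) and 2 were lower (16.7%), against the same 11.3% and 12.6%. SARS2, which charges the mitochondrial serine tRNAs, read 10.13 with DMSO and 9.13 with GANT61 in H4 and was 2.01-fold lower, the single member past 2-fold, where 4.06% of all genes lay on the higher side and 3.53% on the lower. On the authors' linear scale its intensity was 1046 and 547. In ES2 it read 9.04 and 8.81, so the DMSO array of H4 stood above the other 3 arrays. VARS2, for valine, read 8.06 and 7.18 in H4 (1.84-fold lower) and 8.46 and 8.02 in ES2 (1.35-fold lower), lower with GANT61 in both lines by more than the probe SD. NARS2, for asparagine, read 7.49 and 6.91 in H4 (a ratio of -0.58, just short of 1.5-fold) and 7.48 and 7.47 in ES2.

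CARS2, for cysteine, was the mitochondrial gene with the highest H4 ratio. It read 6.49 with DMSO and 7.49 with GANT61 in H4 (1.99-fold higher) and 6.68 and 6.70 in ES2. CARS2 is a dim probe and its H4 ratio of 0.99 was 0.62 on the authors' own scale. MARS2, for methionine, read 6.81 and 7.27 in H4 (1.37-fold higher) and 7.61 and 7.34 in ES2. Its second probe was detected on no array. AARS2 and RARS2, for alanine and arginine, were 1.23-fold and 1.21-fold higher in H4, and IARS2 and FARS2, for isoleucine and phenylalanine, 1.25-fold and 1.19-fold lower. LARS2, EARS2 and YARS2 had ratios of -0.17, -0.12 and 0.09, inside the probe SD.

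In ES2 the differences were small in every member and more genes of both sets were lower than higher. Of 19 cytosolic genes 14 were lower (73.7%), and of 14 mitochondrial genes 9 (64.3%), against 49.2% of all 12214 genes measured in ES2, while 50.6% of all genes were higher. The medians were -0.10 and -0.07, and 0.00 over all genes. No member reached 1.5-fold in either direction, where 0.36% of all genes were higher and 0.319% lower, or 2-fold, where 0.0327% were higher and 0.0327% lower. Counted by the probe SD of ES2, 14 of 33 members lay lower (42.4%) and 3 higher (9.09%), where 22.6% and 22.7% of all genes lay.

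The lowest cytosolic ES2 ratios belonged to SARS1 (-0.32, 1.25-fold lower) and VARS1, whose signal went from 10.67 to 10.40 (1.21-fold lower). The others lower by more than the probe SD were GARS1, NARS1, TARS1, KARS1, AARS1 and CARS1, at ratios between -0.25 and -0.16. IARS1, for isoleucine, was the cytosolic gene higher by more than that SD, with signals of 9.09 and 9.30. In the mitochondrial set, VARS2 was the lowest of the genes detected on both arrays. PARS2 went from 6.37 to 5.99, and since 1 ES2 array that the file does not name detected it, its ratio is given as at most -0.30. MARS2, AARS2 and SARS2 were 1.21-fold, 1.19-fold and 1.18-fold lower, and WARS2, at -0.14, lay just past the probe SD. RARS2 went from 8.63 to 8.97 and was the highest member in ES2 (1.27-fold), and IARS2 was 1.13-fold higher.

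Set side by side, the lines shared a direction in some members and not in others. Of the 31 genes measured in both lines, 7 were higher in both, 12 lower in both, 9 lower in ES2 and higher in H4, and 3 higher in ES2 and lower in H4. Over all 10229 genes measured in both lines these shares were 21.9%, 25.3%, 24.1% and 28.4%, against 22.6%, 38.7%, 29% and 9.68% of the members. No cytosolic gene was higher in ES2 and lower in H4. SARS1, CARS1, GARS1, NARS1, AARS2 and MARS2 were lower in ES2 and higher in H4 by more than the probe SD of each line, and IARS2 was the reverse. These 7 are 22.6% of 31, where 15.2% of all genes had opposite signs past both SDs. Across the 31 genes the ratios of the lines correlated with Pearson r = 0.09 and Spearman rho = 0.01, and across all genes with r = -0.01 and rho = -0.05. These correlations are over genes of the same 4 arrays, and genes are not independent replicates.

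**Figure D2:**
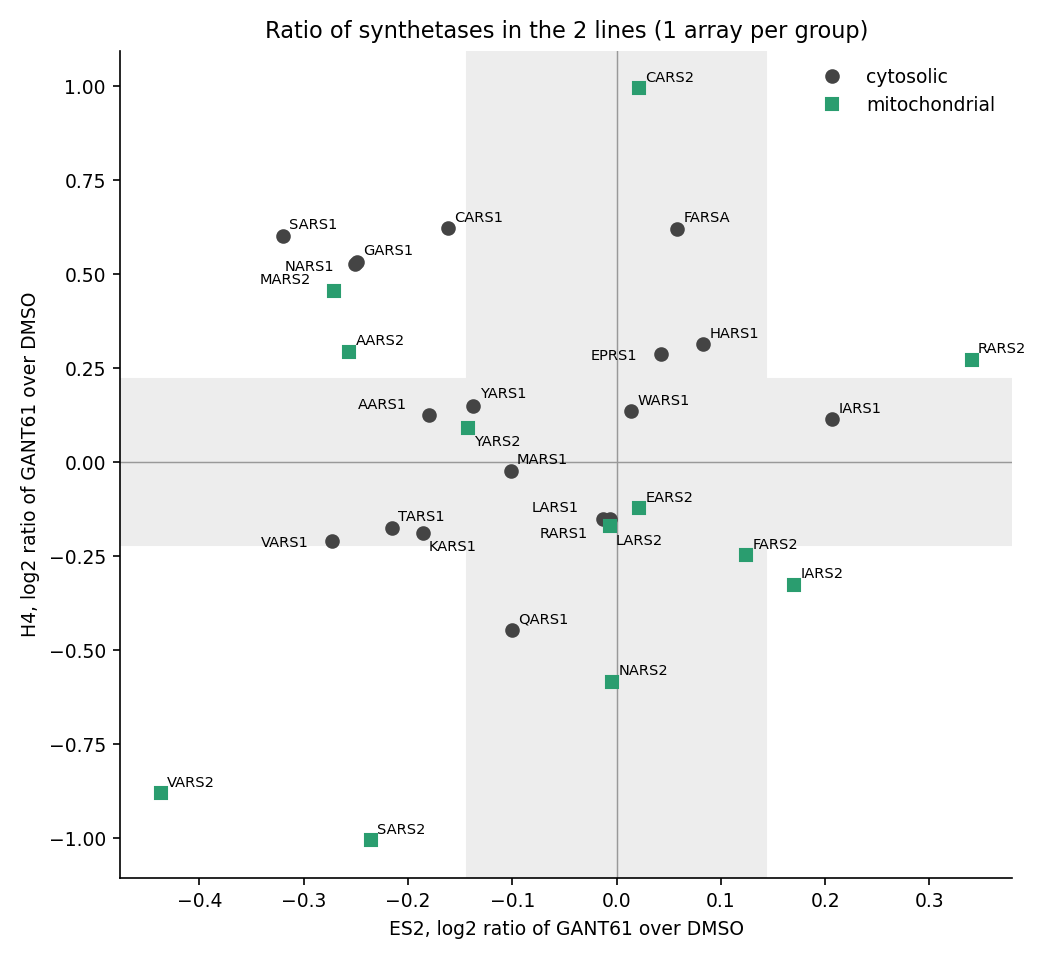
Log2 ratio of GANT61 over DMSO in ES2 (horizontal) and H4 (vertical) for synthetase genes measured in both lines, circles cytosolic and squares mitochondrial. Grey bands span 1 probe SD on each side of 0 (0.143 in ES2, 0.221 in H4). SARS1, CARS1, GARS1 and NARS1 lie at the upper left, and VARS2 and SARS2 at the lower left.

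A common response of the lines was estimated with limma over all 10229 genes, cell line as a block. The 2 lines were thus the only replicates and 1 residual degree of freedom was left. Against it stood 31.97 prior degrees of freedom, so the standard errors rest mostly on a variance borrowed from all genes. None of the 31 members had an adjusted p under 0.05 (limma, Benjamini-Hochberg), where 0.186% of all genes were called higher and 0.0293% lower. At an unadjusted p under 0.05 no member was higher, against 3.53% of all genes, and 2 were lower, against 2.59%. VARS2 had a shared log2 change of -0.66 with a standard error of 0.26 (limma, adjusted p = 0.562). SARS2 had -0.62 with a standard error of 0.29 (limma, adjusted p = 0.759). Both were lower in each of the 2 lines. No shared change was detectable in any member with these arrays, which does not show that the members stayed the same.

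Amino acids with both enzymes measured allow the ratios of the compartments to be compared. In H4, in 8 of 12 such pairs the cytosolic enzyme had the higher H4 ratio and in 4 the mitochondrial one, and the median difference was 0.23. The widest gap was in serine, where the SARS1 ratio exceeded that of SARS2 by 1.61. Asparagine followed with NARS1 over NARS2 by 1.11, then phenylalanine with FARSA over FARS2 by 0.87 and valine with VARS1 over VARS2 by 0.67. The reverse held for methionine (-0.48, MARS1 minus MARS2), arginine (-0.42), cysteine (-0.37) and alanine (-0.17). The cysteine pair differs from serine and asparagine in that both its enzymes were at least 1.5-fold higher in H4. On the authors' scale the CARS1 ratio was 0.56, short of 1.5-fold, and that of CARS2, a dim probe, 0.62. In ES2, 8 of 14 pairs had the higher cytosolic ratio and 6 the lower, the median difference was 0.01, and the range ran from -0.35 in arginine to 0.42 for EPRS1 against PARS2.

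**Figure D3:**
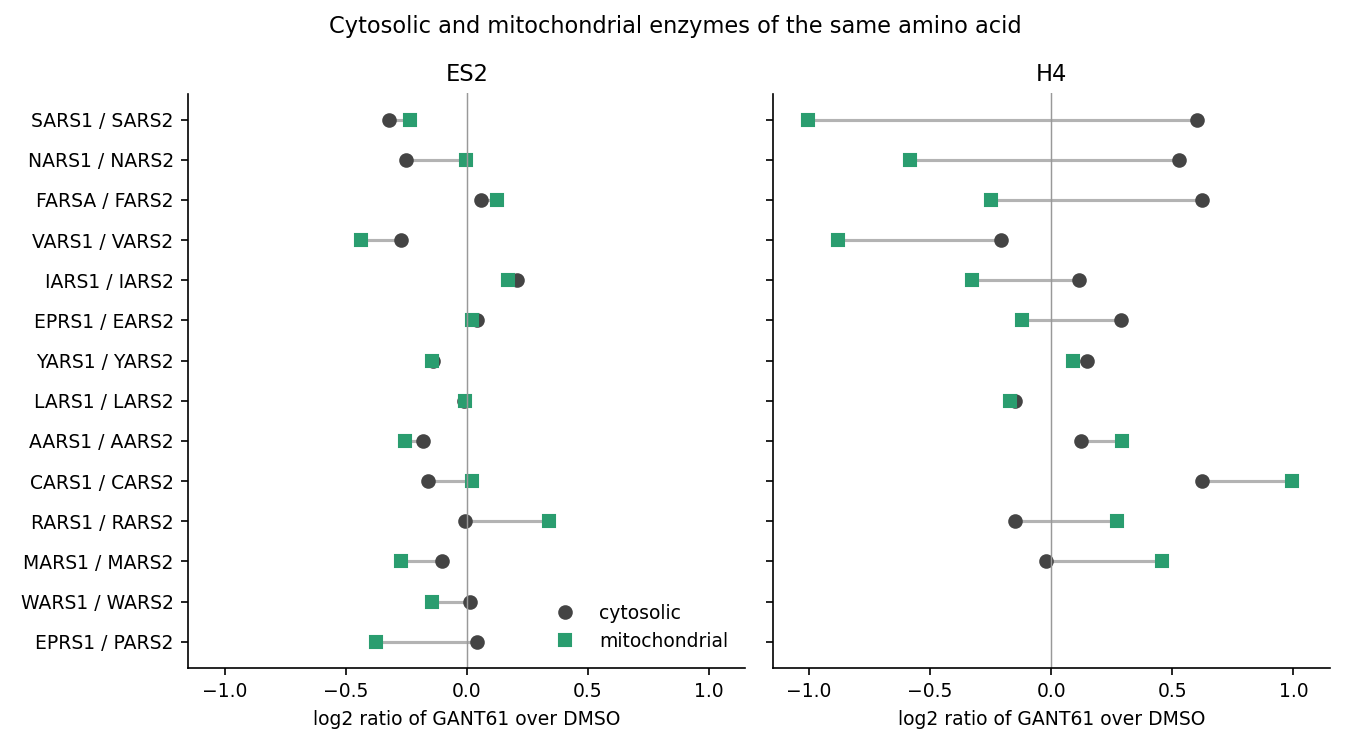
Log2 ratio of GANT61 over DMSO (horizontal axes) of the cytosolic (circle) and mitochondrial (square) enzyme of each amino acid in ES2 (left) and H4 (right), ordered by the H4 difference, with EPRS1 set against both EARS2 and PARS2. The 2 H4 rows with no symbols hold a mitochondrial gene not detected there. The serine, asparagine and phenylalanine pairs are far apart in H4 and close or turned the other way in ES2.

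Place in the multi-synthetase complex is a feature the choice of genes did not use. In H4, of the 8 in the complex, EPRS1, IARS1, KARS1, LARS1, MARS1, QARS1 and RARS1 among them, 2 were higher with GANT61 and 6 lower, with a median of -0.15, where 45.4% of all genes were higher and 54.5% lower. Of the 11 measured outside it, 9 were higher and 2 lower, with a median of 0.31, and the 3 genes at least 1.5-fold higher were all among them. In ES2 the medians were -0.02 inside and -0.18 outside, with 6 of 8 and 8 of 11 lower, against 49.2% of all genes. The signs of these 4 medians stayed the same under all 8 processing alternatives, most of which could hardly change the sign of a ratio within a line. The grouping was made with these data in view and the difference was not tested. Of the scaffold proteins, AIMP1 was detected on no array, AIMP2 had ratios of 0.02 in ES2 and -0.49 in H4, and EEF1E1 of 0.04 and -0.03.

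By the promoter element, the 7 cytosolic genes that hold it had a median ratio of -0.18 in ES2, where 6 were lower (49.2% of all genes), and 0.12 in H4, where 5 were higher (45.4% of all genes). The 8 searched and measured genes without it had medians of 0.00 and 0.21, with 4 lower in ES2 and 5 higher in H4. Of the cytosolic genes higher in H4 by more than the probe SD, CARS1 (the highest), GARS1 and NARS1 hold the element. SARS1, FARSA, HARS1 and EPRS1 do not. TARS1 and MARS1 hold it at ratios of -0.17 and -0.02. Not all cytosolic genes were searched, and a link of the element to the ratios was not tested. By chemical class of the catalytic domain, the 9 measured cytosolic enzymes of class I had an H4 median of -0.02. The 9 of class II had a median of 0.31, with EPRS1, which carries both, left out. In ES2 the cytosolic class II median was the lower one, at -0.19 against -0.10. Among mitochondrial enzymes in H4 class II was also lower, at -0.42 (4 genes) against -0.02 (8 genes). A link of class to the ratios was not tested.

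ATF4 and 30 of its known targets outside the synthetases stood mostly on opposite sides in the lines. In H4, 29 of 31 genes were higher, against 45.4% of all genes, and 16 (51.6%) were higher by 1.5-fold or more, against 11.3%, with a median of 0.60. In ES2, 23 of 28 were lower, against 49.2% of all genes, 3 of them by 1.5-fold or more (10.7%, against 0.319%), with a median of -0.30. Taking bounds for genes that 1 array detected, the medians became 0.53 and -0.25. Of 28 genes measured in both lines, 23 were lower in ES2 and higher in H4 (82.1%), against 24.1% of all genes and 6 of 19 cytosolic synthetases (31.6%). This list was drawn up with earlier results of these arrays known and is no independent evidence of its direction.

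ATF4 itself read 11.71 and 11.39 in ES2 and 12.72 and 13.07 in H4. ASNS, which makes asparagine, went from 10.51 to 10.28 in ES2 (1.17-fold lower) and from 12.41 to 13.27 in H4 (1.81-fold higher), the same directions as NARS1. PSAT1, an enzyme of serine synthesis, went from 9.89 to 9.58 in ES2 and from 10.36 to 11.62 in H4 (2.39-fold higher), the same directions as SARS1. SLC7A5, a transporter of large neutral amino acids, went from 9.93 to 8.96 in ES2 (1.96-fold lower) and from 12.41 to 13.29 in H4 (1.85-fold higher). The largest H4 ratios in the list were those of STC2 (4.28-fold), PPP1R15A and VLDLR (3.32-fold each), PSAT1 and ATF3 (2.21-fold), all above the highest synthetase ratio, that of CARS2. TRIB3, EIF4EBP1, SLC1A5, PSPH, SLC7A1, CTH and SLC38A2 were 1.52-fold to 1.89-fold higher in H4. XPOT, which exports tRNA from the nucleus, had ratios of 0.12 in ES2 and 0.07 in H4.

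**Figure D4:**
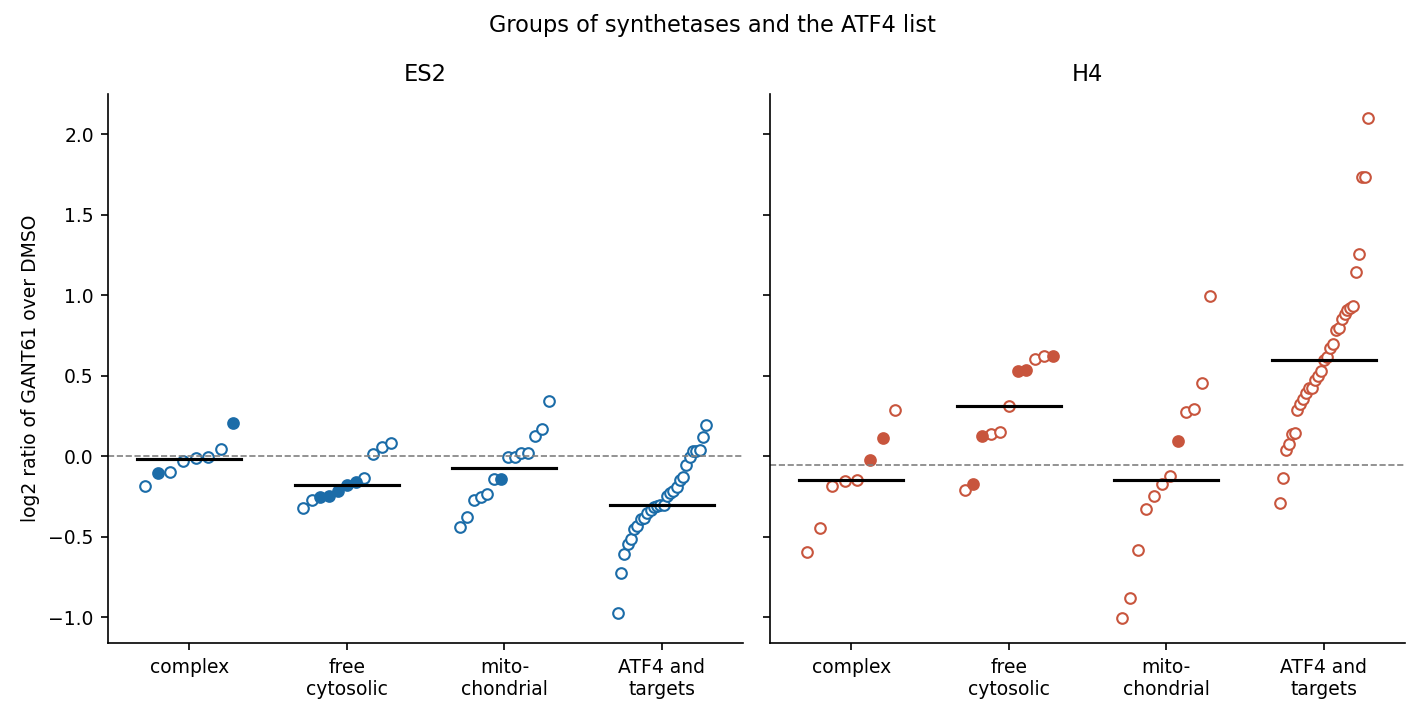
Log2 ratio of GANT61 over DMSO (vertical axis) in ES2 (left) and H4 (right) for cytosolic synthetases in the multi-synthetase complex, those outside it, mitochondrial synthetases, and ATF4 with its targets outside the synthetases. Each point is a gene, filled where a synthetase promoter holds the element. Open points include synthetases with no window searched and all genes of the ATF4 list, whether or not they hold it. Bars are group medians and the dashed line is the median of all measured genes. In H4 the free cytosolic enzymes (median 0.31) lie between the complex (-0.15) and the ATF4 list (0.60).

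Other genes of tRNA charging and elongation were mostly within 1.5-fold. Of the mitochondrial synthetases outside the 34 genes, HARS2 had ratios of -0.20 in ES2 and -0.49 in H4, and TARS2 of 0.15 and 0.04. GATB, a subunit of the enzyme that converts glutamate on the mitochondrial glutamine tRNA, had 0.06 and -0.63, 1.55-fold lower in H4. The 5 cytosolic elongation factors ran from -0.22 to 0.29 in H4 and the 4 mitochondrial ones from -0.38 to 0.33, with none at 1.5-fold in either line. None of the eIF2α kinases reached 1.5-fold in either line, and EIF2AK4, the kinase that senses uncharged tRNA, had ratios of 0.13 in ES2 and -0.05 in H4.

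Between the lines given DMSO, the order of some members held on every scale and that of others did not. The authors normalized each line separately, so levels were compared after a common quantile normalization, and this comparison shares its DMSO arrays with the treatment ratios. Of 13 mitochondrial genes 10 were lower in H4 than in ES2 with DMSO (76.9%, against 53% of all 11820 genes), 4 of them by 1.5-fold or more (30.8%, against 23.5%), and 1 was higher by that much (7.69%, against 19.7%). Of 19 cytosolic genes 10 were higher (52.6%, against 46.9%) and 9 lower (47.4%, against 53%). By 1.5-fold or more, 4 were higher (21.1%, near the 19.7% of all genes) and 1 was lower (5.26%, against 23.5%). Of the 4, 3 were higher by 2-fold or more (15.8%, against 9.71%). The medians were -0.34 and 0.00, and -0.06 over all genes. With each array scaled to its median in place of quantile normalization, all genes moved to a median of -0.65. Relative to all genes, the mitochondrial median was then -0.34 and the cytosolic median -0.22, against -0.28 and 0.06 after quantile normalization, so that the cytosolic set changed side.

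WARS1, for tryptophan, had the widest gap, 2.68-fold higher in H4, and remained higher on the authors' scale (1.02) and with median scaling (0.57). SARS2 was 2.13-fold, NARS1 2.10-fold and CARS1 2.06-fold higher in H4, and all stayed above 0 on both of those scales. GARS1 was higher by 0.59 after quantile normalization but had a log2 difference of -0.39 with median scaling. Lower in H4 stood LARS2 (1.87-fold), VARS1 (1.78-fold), MARS2 (1.74-fold) and RARS2 (a difference of -0.59), and WARS2 was detected on both ES2 arrays and on neither H4 array. NARS1 and CARS1 thus had higher signals in H4 than in ES2 with DMSO, and in H4 were higher with GANT61 than with DMSO. SARS2 was also higher in H4 with DMSO, but lower there with GANT61. A single DMSO array stands behind both statements for H4.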

How the data were processed

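Total RNA of 4 samples was hybridized to Illumina Human HT V4 BeadChips, per the labels' protocols. The deposited value table holds 1 linear intensity per probe and array, and the array software is not given in the sources used here. When sorted, the intensities of a line's DMSO and GANT61 arrays lay within a median of 0.00457% (ES2) and 0.0103% (H4) of each other but those of the 2 DMSO arrays 42.2% apart, as quantile normalization within each line would leave them. Detection p-values came from a second deposited table, per the file headers. Its 4 signal columns name a line but no treatment and were not used, so detection was counted as 0 to 2 arrays of a line.

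The authors' intensity was background-corrected with normexp (saddle-point, offset 16), normalized by quantiles across all 4 arrays and log2-transformed with limma 3.58.1 in R 4.3.3. The offset shrinks ratios of dim probes. Names were updated through the RefSeq table of GRCh38.p14, and the brightest probe stood for a gene. A gene entered a line's comparison when detected at p under 0.01 on at least 1 of its arrays. It entered the comparison of the lines given DMSO when detected on both arrays of at least 1 line. Ratios of genes detected on 1 array are given as bounds where named. The shared response was fitted with lmFit and eBayes with a trend. The fit was tested on simulated data for the response shared by the lines (10229 genes). There it called all of 100 genes changed by 1 and all of 100 changed by 2 on the log2 scale and made 6 false calls. The simulation gave both lines the same change and a fixed noise level not taken from these arrays. It therefore does not show what share of real changes the fit would call in these data. Nothing says that cultures were independent beyond the line, so p-values do not reach beyond these samples. They rest mostly on a variance that limma borrows from all genes, not on each gene's own spread. The members and lists were chosen with earlier results of these data known. The members were named, and of the other lists those at least 1.5-fold different. Further genes were named for their role or chosen after their values were seen (ATF4, XPOT, EIF2AK3, EIF2AK4, AIMP1, AIMP2, EEF1E1, HARS2 and TARS2). Some genes enter the counts and medians but are not reported here. Precision is limited by the number of arrays.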

Additional observations from a re-analysis of the deposited data

Results flagged for a closer look

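Some members had ratios of opposite sign in the 2 lines, each larger than the spread between probes in its line. With 1 array per group the difference between the lines was not tested. The H4 ratio minus the ES2 ratio (log2) was 0.92 for SARS1, 0.78 for CARS1, 0.78 for GARS1, 0.78 for NARS1, 0.73 for MARS2, 0.55 for AARS2 and -0.50 for IARS2. MARS2 and AARS2 are mitochondrial enzymes that lay on the side of the cytosolic ones, and IARS2 was the only one of the 7 that was higher in ES2 and lower in H4.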

How the results depend on the processing

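The medians of both sets within each line kept their sign under all 9 alternatives tried for each, staying at -0.10 for the cytosolic set and running from -0.07 to -0.01 for the mitochondrial set in ES2, and from 0.11 to 0.12 and from -0.17 to -0.09 in H4. Of the single members' values under the alternatives, 263 of 263 in ES2 and 248 of 248 in H4 kept their sign. The deposited arrays of a line already had nearly the same distribution, so most alternatives could hardly change the sign of a ratio within a line. The kept signs are therefore no check of the ratios. No member was called in the shared response under any alternative tried. Counts at 1.5-fold in H4 were fragile. The 3 cytosolic genes higher became 1 without background correction, with an offset of 50 and with median scaling, and 0 on the authors' scale, and the 1 lower became 0 under these 4. The H4 ratio of CARS2 was 0.77 without background correction, and that of VARS2 was -0.65 on the authors' scale.

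Between the lines given DMSO, the cytosolic median of 0.00 turned to -0.38 on the authors' scale, -0.87 with median scaling and -0.034 without a detection filter. GARS1 turned to -0.39 with median scaling. With median scaling the mitochondrial median was -0.99, no gene of either set was 1.5-fold higher (0 and 0), and 13 cytosolic and 10 mitochondrial genes were 1.5-fold lower. On the authors' scale 6 cytosolic genes were lower. The 4 mitochondrial genes lower became 2 without background correction and 2 with an offset of 50, and adding further mitochondrial synthetases, HARS2 and TARS2 among them, made 2 higher. Groupings by complex, chemical class and promoter element and the ATF4 list were run after the data were seen. No paired analysis was possible because each group holds 1 array, beyond the shared-response fit itself, which sets GANT61 against DMSO within each line. Dim probes such as CARS2, PARS2 and WARS2 limit the mitochondrial set.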
